A study of Mus musculus with 12 samples.

Results

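The extracellular matrix genes and the proteases and inhibitors that remodel the matrix were followed in B16-OVA, a melanoma cell line of mouse origin engineered to make ovalbumin as a model antigen. The set held 48 named genes, and each was read from the probe set that the annotation of the Affymetrix mouse array pairs with that gene alone, taking the one with the highest mean over all 12 arrays. Of these, 46 were measured among 18193 genes with such a probe set. Spp1 (osteopontin) had no probe set listed here and Loxl2, a collagen crosslinking enzyme, was only in 2 probe sets shared with another gene, so neither was analysed here. The groups were B16-OVA cells given the MEK kinase inhibitor GDC-0623 at 100 nM (MEKi) and taken 24 h or 72 h after its addition, and cells given the solvent DMSO and taken at the same 2 times, with 3 arrays in each of the 4 groups. All samples came from this one line in monolayer culture, without the stroma, vessels or immune cells of a tumor.

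The extracellular matrix is the protein scaffold around cells. Fibrillar collagens give it tensile strength, laminins, type IV collagen, nidogen and perlecan build the sheet-like basement membrane, fibronectin forms fibrils that cells bind through integrins, and matricellular glycoproteins such as SPARC modulate contacts between cells and matrix. Metalloproteases of the MMP and ADAM families and the plasminogen activators cut matrix and membrane proteins, and the TIMPs inhibit the metalloproteases. In solid tumors fibroblasts supply much of the matrix, and melanoma cells add their own basement membrane components and proteases.

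Signals are log2 RMA values, so a step of 1 is a doubling. Differences are given as log2 difference ± moderated SE with n = 3 arrays per group, and were tested with limma and Benjamini-Hochberg adjustment over all 45037 probe sets that were not controls. A difference passed when its adjusted p was under 0.05. The submitters describe the replicates as biological without saying whether cultures were separate, so each p reflects the scatter among these arrays, part of which may be technical. Array medians lay at 5.31 to 5.34 in the 6 arrays of 24 h and at 5.36 to 5.42 in those of 72 h. For Dap, a control RNA spiked into the samples, the signal at the 3′ end exceeded that at the 5′ end by 1.96 to 2.16 at 24 h and by 1.34 to 1.47 at 72 h. An alternative fit centred the arrays on their median, and the calls between the times that it ended are given below. The part of the Dap shift in any difference between the times was not tested.

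As no detection calls were used, the background was read from 87 probe sets of 78 chemosensory receptor genes. A group was called at background where its mean was at or under the 95th percentile of those probe sets, which was 5.48 for DMSO 24 h, 5.44 for MEKi 24 h, 5.51 for DMSO 72 h and 5.59 for MEKi 72 h. By this measure 38.9% to 40% of all genes were at background in a group.

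Of the 46 measured genes, 16 (34.8%) were at background in all 4 groups, with group means from 2.90 to 5.47. They included the fibrillar collagen chains Col1a1, Col3a1 and Col5a2, all 3 small leucine-rich proteoglycans (Bgn, Dcn and Lum), the crosslinking enzyme gene Lox, and the glycoprotein genes Tnc, Thbs1, Thbs2, Tgfbi and Fbln2. The type VI collagen chain Col6a1, the laminin chain Lamb1, the nidogen Nid2 and the urokinase gene Plau completed them. Col14a1, a collagen that sits on fibril surfaces, was at background in MEKi 72 h alone, and the other 29 genes were above background in every group. Under both other background levels tried, 15 genes were at background in all groups.

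**Figure D1:**
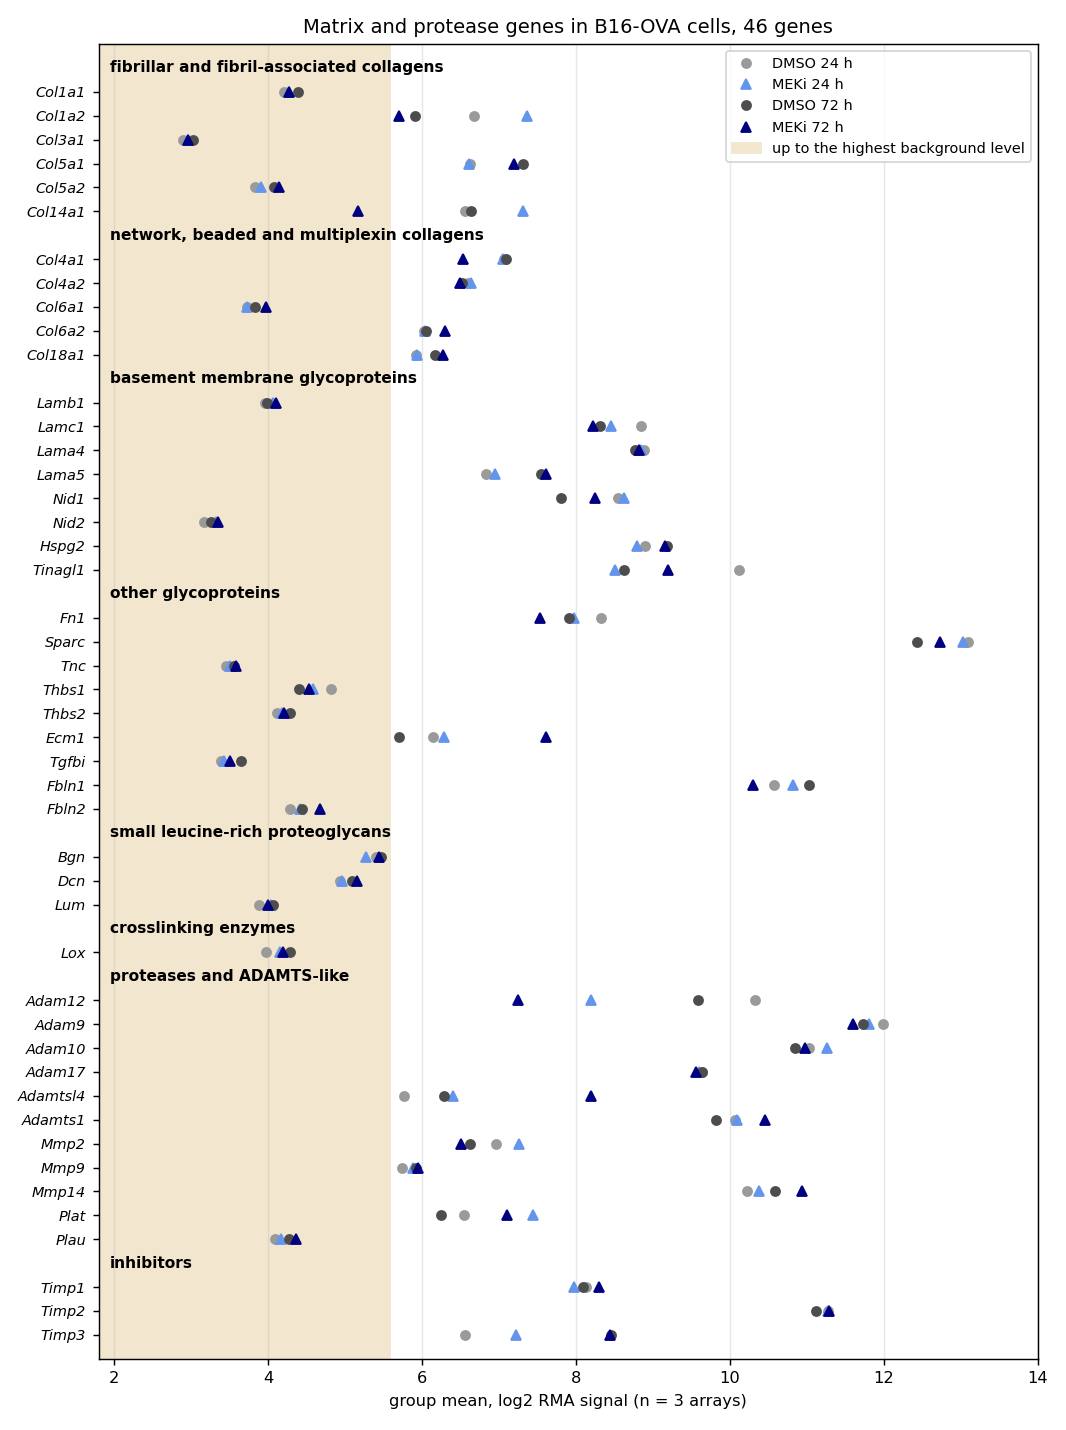
Group means of the 46 measured genes, ordered by role. The x axis is the log2 RMA signal (n = 3 arrays), grey circles are DMSO and blue triangles MEKi (lighter, 24 h and darker, 72 h), and the shaded area ends at the highest of the 4 background levels (5.59). The 16 genes at background lie in the shaded area, with Col14a1 entering it in MEKi 72 h.

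The label of the cells was set against marker genes. All 7 melanocyte markers (Mlana, Pmel, Tyr, Tyrp1, Dct, Sox10 and Mitf) were above background in every group, with Mlana means of 13.96 to 14.16. Of 8 fibroblast and pericyte markers, 5 were at background in every group, among them Pdgfra, Thy1, Dpt and Fap. The sum of the fibroblast list over its 8 genes ran from 41.73 to 42.23 in DMSO 24 h, 42.19 to 43.29 in MEKi 24 h, 43.15 to 43.59 in DMSO 72 h and 42.62 to 44.48 in MEKi 72 h (sum of log2 signals per array). Those above background were Pdgfrb (6.12 to 6.92), Acta2 (5.48 to 5.75) and Pdpn (9.93 to 10.41, group means). At background in all groups were 5 of 7 endothelial, 4 of 7 leukocyte and 5 of 6 epithelial markers, including Pecam1, Ptprc and Cdh1. The others were above background in every group. These were the endothelial Kdr (group means 5.60 to 5.97) and Esam (6.04 to 6.29) and the epithelial Epcam (6.18 to 6.48). Of the leukocyte list they were Csf1r (6.13 to 6.50), Lyz2 (5.55 to 5.93) and Cd3e (5.45 to 5.78). In bulk RNA such as this, fewer cells that use a gene and less RNA per cell cannot be told apart.

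MEKi changed a minority of the set at each time. At 24 h, 5 of the 46 genes were higher (10.9%, beside 5.01% of all 18193 genes) and 4 were lower (8.7%, beside 5.86%). At 72 h, 5 were higher (10.9%, beside 4.03%) and 5 were lower (10.9%, beside 5.14%). The median difference over the set was 0.05 at 24 h and 0.04 at 72 h, beside 0.01 over all genes at either time. The set as a whole was not tested, since its genes were chosen with earlier results in view. In each of these calls the 3 arrays of one group did not overlap the 3 of the other, and this held for 28.1% of all probe sets at 24 h and 24.6% at 72 h.

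Calls in either comparison fell on 13 genes. Of the 6 called at both times, Adam12 and Fn1 were lower at both, Plat and Adamtsl4 were higher at both, and Tinagl1 and Col14a1 changed in opposite directions. In the test of the difference between the MEKi effects (72 h minus 24 h, all 12 arrays), 3 genes were higher (6.52%, beside 1.97% of all genes) and 2 were lower (4.35%, beside 2.1%). These were Tinagl1, Ecm1 and Adamtsl4 in one direction and Col14a1 and Fbln1 in the other. By role, the difference took in 1 of 6 fibrillar and fibril-associated collagens, 1 of 8 basement membrane glycoproteins, 2 of 9 other glycoproteins and 1 of 11 protease or ADAMTS-like genes, and no TIMP.

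**Figure D2:**
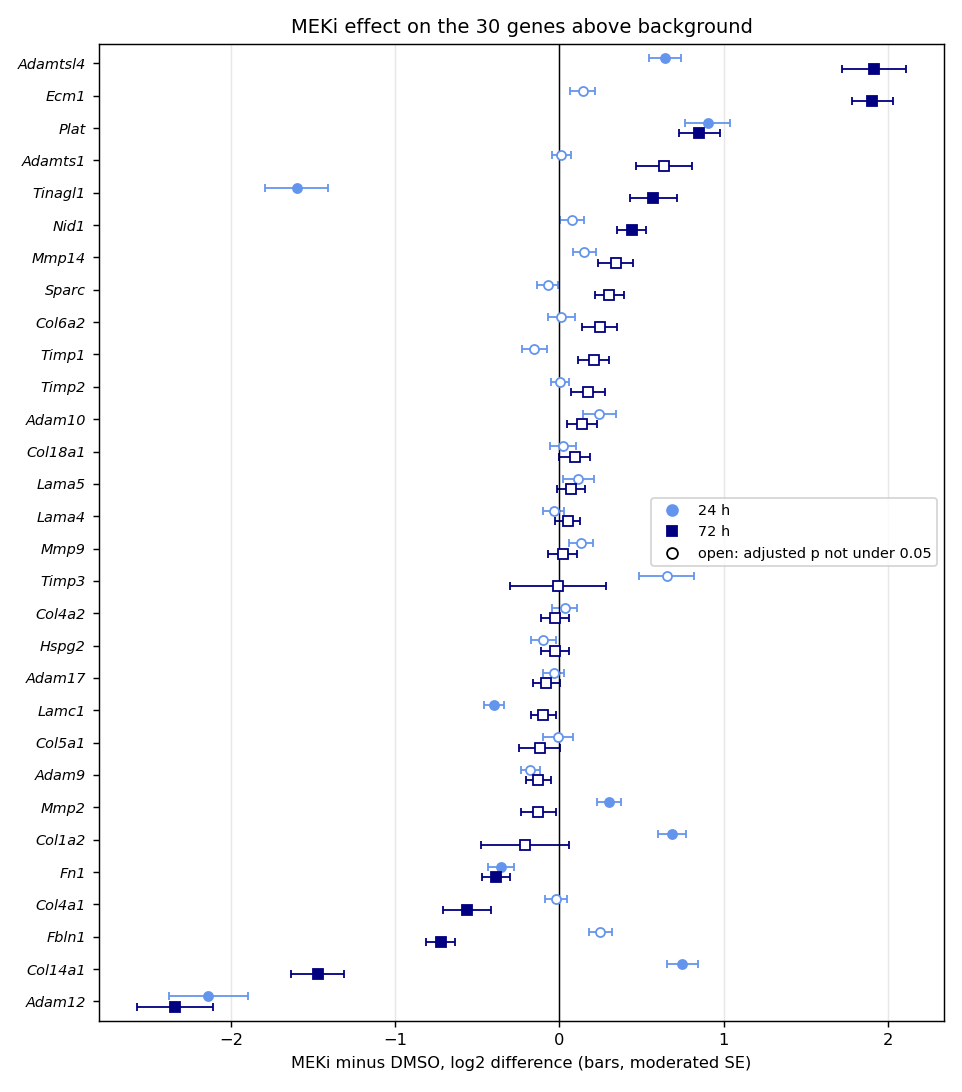
MEKi minus DMSO for the 30 genes above background in at least 1 group, ordered by the effect at 72 h. The x axis is the log2 difference with its moderated SE (n = 3 arrays per group), circles are 24 h and squares 72 h, and filled symbols passed at an adjusted p under 0.05. Adam12 lies furthest to the left at both times, Plat is higher at both, and Tinagl1, Ecm1, Col14a1 and Fbln1 have their 2 symbols far apart.

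Among the fibrillar and fibril-associated collagens, Col14a1 and Col1a2 rose with MEKi at 24 h and only Col14a1 passed, in the opposite direction, at 72 h. Col14a1 read 6.66, 6.48 and 6.55 in DMSO 24 h, 7.42, 7.41 and 7.11 in MEKi 24 h, 6.57, 6.48 and 6.86 in DMSO 72 h, and 4.99, 4.96 and 5.55 in MEKi 72 h. The MEKi arrays of 24 h were the highest and those of 72 h the lowest of the 12, and the DMSO arrays of both times overlapped. The rise at 24 h was 0.75 ± 0.10 (limma adjusted p = 0.00518). At 72 h it was lower by -1.47 ± 0.16 as measured (means of 5.17 and 6.64, adjusted p = 0.0013). As MEKi 72 h was at background, this is given as a bound, with DMSO at least 2.07-fold higher. The effects differed between the times by -2.22 ± 0.21 as measured (adjusted p = 0.000262), and by -1.80 with MEKi 72 h held at the background level. Col14a1 had 2 dimmer probe sets at background, of which one gave 0.66 at 24 h (adjusted p = 0.00508) and -0.13 at 72 h (adjusted p = 0.717) and the other 0.05 and -0.04 (adjusted p = 0.83 and 0.874). With the mean over all its probe sets the effects were 0.49 and -0.55.

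Col1a2 encodes the second chain of type I collagen, whose first chain, Col1a1, was at background. Col1a2 read 6.58, 6.69 and 6.75 in DMSO 24 h, 7.24, 7.33 and 7.51 in MEKi 24 h, 5.53, 5.52 and 6.68 in DMSO 72 h, and 5.80, 5.83 and 5.47 in MEKi 72 h. It rose by 0.69 ± 0.09 at 24 h (adjusted p = 0.0047), a call lost when all 12 arrays shared 1 fit (adjusted p = 0.0943). At 72 h DMSO replicate 3 stood more than 1 log2 unit above the other 2 DMSO arrays, and the MEKi difference of -0.21 did not pass (adjusted p = 0.74). Within MEKi cells Col1a2 fell over time, with a change of -1.66 ± 0.11 from 24 h to 72 h (adjusted p = 2.27e-05). The MEKi 72 h mean of 5.70 was near the background level of 5.59, with replicate 3 under it. The other probe sets of Col1a2 were at background in all groups. In DMSO cells the change of -0.76 did not pass (adjusted p = 0.0691), and did with the replicate number as a block (adjusted p = 0.0307). Between the times this block pairs arrays by number, and such a pairing was weak or absent in these arrays. Without DMSO 72 h replicate 3 the DMSO change was -1.15 and passed (adjusted p = 0.000427). The DMSO 72 h arrays then left, at 5.53 and 5.52, were near the background level of 5.51, so the size of this fall is limited by background. The MEKi difference at 72 h is limited in the same way.

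Col5a1, a chain that sets fibril diameter, did not pass for MEKi (-0.01 at 24 h and -0.12 at 72 h) but was higher at 72 h than at 24 h in both arms. Its arrays read 6.73, 6.61 and 6.52 in DMSO 24 h, 6.74, 6.64 and 6.45 in MEKi 24 h, 7.59, 7.28 and 7.06 in DMSO 72 h and 7.24, 7.10 and 7.23 in MEKi 72 h. All arrays of 72 h lay above all of 24 h. The rise was 0.69 ± 0.13 in DMSO (adjusted p = 0.00483) and 0.58 ± 0.09 in MEKi (adjusted p = 0.00155), and the other probe sets of Col5a1 gave 0.19 and 0.09 in DMSO, which did not pass. With the mean over its probe sets the rises were 0.33 and 0.38.

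Of the basement membrane and other collagens, Col4a1 was lower with MEKi at 72 h. Its arrays read 7.17, 7.00 and 7.03 in DMSO 24 h, 7.08, 7.01 and 7.05 in MEKi 24 h, 7.33, 6.89 and 7.06 in DMSO 72 h and 6.72, 6.24 and 6.63 in MEKi 72 h. The difference at 72 h was -0.56 ± 0.15 (adjusted p = 0.0465). This call was at the edge of the threshold, and leaving out DMSO replicate 1 or 3 or any 1 MEKi array ended it (adjusted p from 0.0624 to 0.158), as did the mean over its 2 probe sets (-0.38, adjusted p = 0.0636). The difference between its MEKi effects, -0.54, did not pass (adjusted p = 0.125) but did with the replicate block (0.0212). Col4a2, which pairs with Col4a1 in the type IV trimer, differed by 0.03 at 24 h and -0.03 at 72 h and did not pass in any comparison. The type VI chain Col6a2 and Col18a1, the source of endostatin, did not pass for MEKi and rose over time in MEKi cells, by 0.27 and 0.33 (adjusted p = 0.033 and 0.0149). The first of these was lost without MEKi 24 h replicate 1 or 2 or MEKi 72 h replicate 1 or 2 (adjusted p from 0.0529 to 0.106). It was also lost with the replicate block (0.0562) and with all 12 arrays in 1 fit (0.0585). With arrays centred on their median it was 0.19 and did not pass (adjusted p = 0.107). The second was lost without MEKi 24 h replicate 2 (0.0611) or MEKi 72 h replicate 1 (0.0501). With the mean over its probe sets the second was lost too (0.17, adjusted p = 0.0672).

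In the basement membrane group, Tinagl1 moved most. It encodes a secreted glycoprotein that binds integrins and laminin. Tinagl1 read 10.10, 10.06 and 10.16 in DMSO 24 h, 8.26, 8.23 and 9.03 in MEKi 24 h, 8.78, 8.85 and 8.25 in DMSO 72 h and 9.17, 9.18 and 9.25 in MEKi 72 h. DMSO 24 h was the highest group, and at 72 h every MEKi array lay above every DMSO array. With MEKi the signal was 3.03-fold lower at 24 h (-1.60 ± 0.19, adjusted p = 0.00415) and 1.49-fold higher at 72 h (0.57 ± 0.14, adjusted p = 0.0411). The difference of the 2 effects was 2.17 ± 0.26 (adjusted p = 0.00136). It held in each alternative fit, but the 72 h call alone was lost without DMSO replicate 1 (adjusted p = 0.063) and without each MEKi array (adjusted p from 0.103 to 0.123), and with all 12 arrays in 1 fit (0.0627) or arrays centred on their median (0.0525).

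The reversal went with opposite changes over culture time. In DMSO, Tinagl1 fell over time, with a change of -1.48 ± 0.14 (adjusted p = 0.000245). In MEKi cells it rose by 0.69 ± 0.18 (adjusted p = 0.0211), a call lost without MEKi 24 h replicate 1 or 2 or any 1 MEKi 72 h array (adjusted p from 0.0546 to 0.0763). These time comparisons share their arrays with the MEKi comparisons.

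The laminin and nidogen genes changed less. Lamc1, the gamma chain of most laminins, read 8.86, 8.86 and 8.83 in DMSO 24 h, 8.39, 8.51 and 8.46 in MEKi 24 h, 8.25, 8.34 and 8.36 in DMSO 72 h and 8.21, 8.22 and 8.23 in MEKi 72 h. Its MEKi arrays of 24 h lay below the DMSO arrays of 24 h and above those of 72 h. The MEKi difference was -0.40 ± 0.06 at 24 h (adjusted p = 0.00891) and -0.10 at 72 h (adjusted p = 0.561). A second, dimmer probe set of Lamc1 gave -0.39 at 24 h and did not pass (adjusted p = 0.136).

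Nid1, which bridges laminin and type IV collagen, read 8.60, 8.57 and 8.48 in DMSO 24 h, 8.64, 8.71 and 8.53 in MEKi 24 h, 7.82, 7.79 and 7.79 in DMSO 72 h and 8.19, 8.37 and 8.16 in MEKi 72 h. The 3 DMSO arrays of 72 h were its lowest. Nid1 was higher with MEKi at 72 h by 0.44 ± 0.09 (adjusted p = 0.0142), a call lost without DMSO replicate 1 (adjusted p = 0.0527) or MEKi replicate 2 (adjusted p = 0.0689) and with the mean over its probe sets (0.24, adjusted p = 0.0647). Lama5, the alpha chain of laminin-511, was not changed beyond the threshold by MEKi (0.12 and 0.07). The perlecan gene Hspg2 and the laminin chain Lama4 did not pass for MEKi either, with differences between -0.10 and 0.05.

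Among the other glycoproteins, Ecm1 rose with MEKi at 72 h, Fbln1 fell at 72 h, and Fn1 was lower at both times. Ecm1 encodes a secreted protein that binds perlecan and other matrix components. Ecm1 read 6.15, 6.09 and 6.20 in DMSO 24 h, 6.21, 6.42 and 6.24 in MEKi 24 h, 5.90, 5.74 and 5.47 in DMSO 72 h and 7.69, 7.73 and 7.41 in MEKi 72 h. The 3 MEKi arrays of 72 h stood above the other 9, and 1 DMSO array of 72 h was under the background level of 5.51. The MEKi difference was 1.91 ± 0.13 at 72 h, or 3.75-fold (adjusted p = 0.000315), and 0.14 at 24 h, which did not pass (adjusted p = 0.306). The effects differed between the times by 1.76 ± 0.16 (adjusted p = 0.000205).

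Adamtsl4 lies beside Ecm1 on chromosome 3, on the same strand and with 0 protein-coding genes between them in RefSeq (GRCm38.p6). It encodes a secreted protein of microfibrils that resembles the ADAMTS proteases but lacks their catalytic domain. Adamtsl4 read 5.58, 5.84 and 5.86 in DMSO 24 h, 6.56, 6.30 and 6.35 in MEKi 24 h, 6.31, 6.41 and 6.12 in DMSO 72 h and 8.73, 7.96 and 7.90 in MEKi 72 h. As with Ecm1, the MEKi arrays of 72 h stood above all others. The MEKi difference was 0.64 ± 0.10 at 24 h (adjusted p = 0.00923) and 1.92 ± 0.19 at 72 h (adjusted p = 0.000968), and these differed by 1.27 ± 0.25 (adjusted p = 0.0146). The neighbours on either side did not pass for MEKi at 72 h. Ensa and Mcl1 differed by -0.02 and 0.16, and Tars2 and Rprd2 by -0.04 and 0.01.

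The 250 bases before the annotated starts of these 2 neighbouring genes are shown because the pair rose together at 72 h. They are from RefSeq (GRCm38.p6), written 5′ to 3′ on the minus strand, for Ecm1 at chr3:95739570-95739819 and for Adamtsl4 at chr3:95687918-95688167. The capitals mark the AP-1 heptamer TGANTCA, where N is any base, searched on both strands in windows of 250 bases before to 50 after each start.
Ecm1: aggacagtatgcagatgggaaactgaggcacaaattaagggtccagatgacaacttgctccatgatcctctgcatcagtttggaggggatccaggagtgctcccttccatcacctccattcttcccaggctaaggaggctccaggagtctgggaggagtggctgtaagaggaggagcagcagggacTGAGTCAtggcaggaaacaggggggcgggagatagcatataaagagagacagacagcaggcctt
Adamtsl4: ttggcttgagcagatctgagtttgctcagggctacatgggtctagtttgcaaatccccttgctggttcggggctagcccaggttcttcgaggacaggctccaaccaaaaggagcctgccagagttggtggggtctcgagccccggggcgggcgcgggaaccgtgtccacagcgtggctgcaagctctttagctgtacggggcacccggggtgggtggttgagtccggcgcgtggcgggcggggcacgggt
The Ecm1 match began 64 bases before the start, and the Adamtsl4 window held no match. This heptamer was in 7.81% of all 32851 such windows, or those of 8.97% of 27025 genes. It was found for 3 of the 29 measured genes that had a window (34 windows), namely Ecm1, Tinagl1 and Col6a1. The core CCGGAA, bound by ETS factors, was in 14.9% of all windows, or those of 16.7% of genes, and was found for 2 of the 29, Adam17 and Nid1. A match describes letters and does not show binding.

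Fbln1 encodes fibulin-1, which binds fibronectin, laminin and fibrinogen. Fbln1 read 10.64, 10.52 and 10.54 in DMSO 24 h, 10.90, 10.82 and 10.73 in MEKi 24 h, 11.06, 11.04 and 10.96 in DMSO 72 h and 10.26, 10.22 and 10.41 in MEKi 72 h. The MEKi arrays lay above DMSO at 24 h and below it at 72 h. The fall at 72 h was -0.72 ± 0.09 (adjusted p = 0.00169), while the 24 h difference of 0.25 did not pass (adjusted p = 0.0663), and the effects differed by -0.97 ± 0.11 (adjusted p = 0.000774). The 24 h difference passed in some alternative settings (adjusted p from 0.00658 to 0.0417), and the other Fbln1 probe sets gave 0.20 and 0.24 at 24 h without passing. A second probe set gave -0.71 at 72 h (adjusted p = 0.00183) and another, dimmer one -0.26 (adjusted p = 0.119).

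Fn1, which encodes fibronectin, read 8.41, 8.37 and 8.19 in DMSO 24 h, 8.03, 8.00 and 7.88 in MEKi 24 h, 7.96, 7.90 and 7.88 in DMSO 72 h and 7.44, 7.64 and 7.50 in MEKi 72 h. It was 1.28-fold lower with MEKi at 24 h (-0.35 ± 0.08, adjusted p = 0.032) and 1.31-fold lower at 72 h (-0.39 ± 0.09, adjusted p = 0.0245). At 24 h the call was lost without DMSO replicate 1 or 2 or any 1 MEKi array (adjusted p from 0.0628 to 0.11), and at 72 h without DMSO replicate 1 or 2 or MEKi replicate 1 or 3 (0.054 to 0.101). With the mean over its probe sets, 1 of them at background, the differences were -0.18 and -0.21 and did not pass.

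Sparc, a matricellular protein that binds collagen, read 13.10, 13.04 and 13.12 in DMSO 24 h, 13.05, 13.06 and 12.94 in MEKi 24 h, 12.46, 12.49 and 12.33 in DMSO 72 h and 12.69, 12.84 and 12.66 in MEKi 72 h. At 72 h the MEKi arrays lay above the DMSO arrays without passing (0.30, adjusted p = 0.0728), and a second probe set, at 0.37, passed (adjusted p = 0.0461). The other 5 measured glycoprotein genes were at background in all groups.

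**Figure D3:**
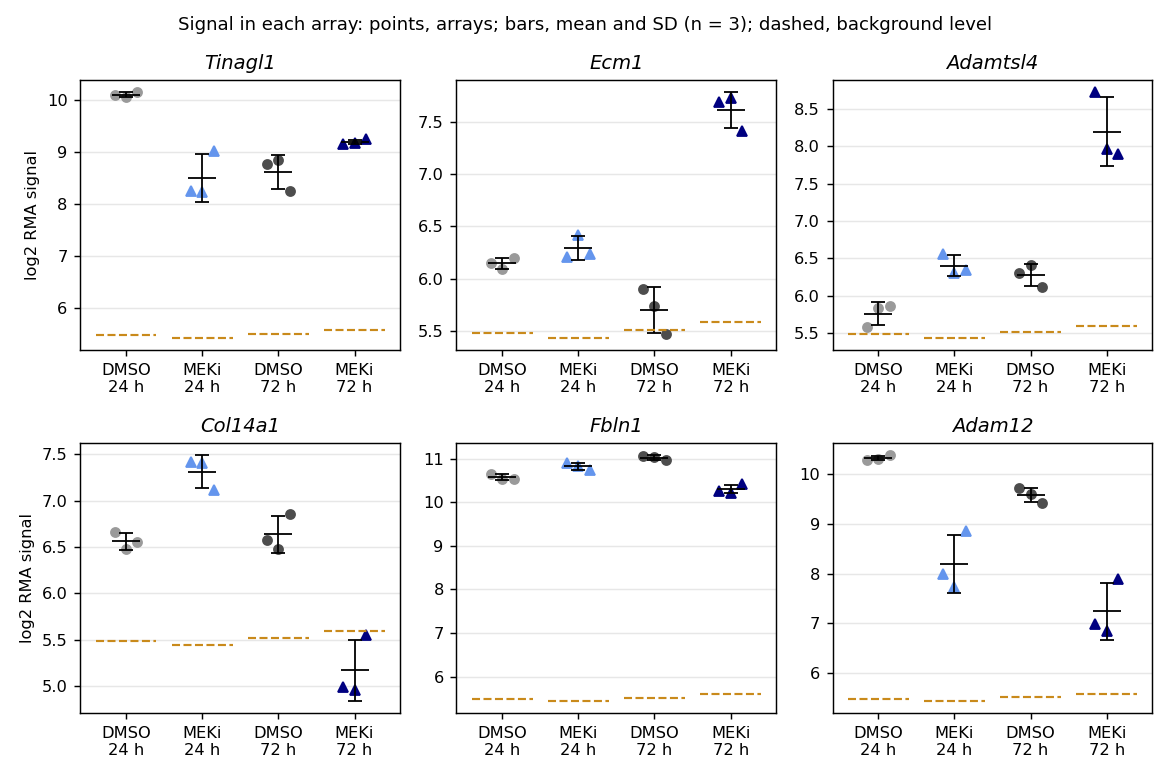
Log2 RMA signal in each array for the 5 genes whose MEKi effect differed between the times and for Adam12. Points are arrays (grey circles DMSO, blue triangles MEKi), bars the mean and SD (n = 3), and dashed lines the background level of each group, and each panel has its own y axis. Ecm1 and Adamtsl4 are highest in MEKi 72 h, Col14a1 falls under the background level there, and MEKi replicate 3 is the highest MEKi array of Adam12 at both times.

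Of the 11 protease and ADAMTS-like genes, 10 were above background, and Adam12 showed the largest difference of the set at both times. Adam12 is a membrane-anchored metalloprotease that sheds growth factor precursors. Adam12 read 10.29, 10.31 and 10.38 in DMSO 24 h, 7.99, 7.73 and 8.85 in MEKi 24 h, 9.72, 9.60 and 9.43 in DMSO 72 h and 6.99, 6.84 and 7.90 in MEKi 72 h. Every MEKi array was below every DMSO array of its time, and MEKi replicate 3 lay nearest to DMSO at both times. The signal was 4.40-fold lower with MEKi at 24 h (-2.14 ± 0.24, adjusted p = 0.00352) and 5.06-fold lower at 72 h (-2.34 ± 0.23, adjusted p = 0.000883). The fall over time within MEKi cells, -0.95 ± 0.31, missed the threshold (adjusted p = 0.0524) and passed with the replicate number as a block (adjusted p = 0.000406). That block pairs arrays of 24 h and 72 h by number, a pairing that was weak or absent over all probe sets. Without MEKi replicate 3 the MEKi differences were -2.47 and -2.67. A second, dimmer probe set of Adam12 (mean of 6.43 over all arrays) gave -2.30 and -2.37 as measured. Its mean in MEKi 72 h was under the background level of 5.59, so the size of the 72 h value is limited by background.

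The other membrane ADAM proteases moved little. Adam9 differed by -0.18 at 24 h (adjusted p = 0.0959), Adam10, the alpha-secretase, by 0.24 and 0.14, and Adam17, which releases TNF, by -0.03 and -0.08, and none of them passed for MEKi. The Adam9 difference at 24 h passed in some alternative settings (adjusted p from 0.00333 to 0.0368). Adamts1, a secreted protease that cuts aggrecan and versican, had a difference of 0.64 ± 0.17 at 72 h that missed the threshold (adjusted p = 0.0533). It passed in a fit with the replicate number as a block (adjusted p = 0.0321) and without DMSO replicate 2 (0.0389) or MEKi replicate 1 (0.0436), among other settings.

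Plat, the tissue plasminogen activator, was higher with MEKi at both times. Plat read 6.64, 6.42 and 6.56 in DMSO 24 h, 7.36, 7.77 and 7.20 in MEKi 24 h, 6.45, 6.28 and 6.02 in DMSO 72 h and 7.17, 7.21 and 6.93 in MEKi 72 h. All 6 MEKi arrays stood above all 6 DMSO arrays. The rise was 0.90 ± 0.14 at 24 h, or 1.87-fold (adjusted p = 0.00846), and 0.85 ± 0.12 at 72 h, or 1.81-fold (adjusted p = 0.00373). With the mean over its probe sets, the other of which was at background, the rises were 0.53 and 0.45 and still passed. Plau, the other plasminogen activator, was at background.

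Of the MMP genes, only Mmp2, the type IV collagenase gelatinase A, passed for MEKi, at 24 h. Mmp2 read 6.88, 6.95 and 7.06 in DMSO 24 h, 7.19, 7.34 and 7.26 in MEKi 24 h, 6.72, 6.52 and 6.64 in DMSO 72 h and 6.70, 6.34 and 6.46 in MEKi 72 h. The rise of 0.30 ± 0.07 (adjusted p = 0.0419) was lost without any 1 of the 6 arrays (0.0624 to 0.143). It was also lost with the replicate block (0.0531) and with all 12 arrays in 1 fit (0.0739). The 72 h difference was -0.13. A second, slightly dimmer probe set of Mmp2 gave 0.17 at 24 h and did not pass (adjusted p = 0.267). Mmp14, the membrane-bound activator of pro-MMP2, differed by 0.15 at 24 h and 0.34 at 72 h (adjusted p = 0.0879), and gelatinase B, Mmp9, by 0.13 and 0.02.

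The 3 TIMP inhibitors did not pass for MEKi at either time. Timp3, which stays bound to the matrix, read 6.94, 6.22 and 6.53 in DMSO 24 h, 7.39, 7.06 and 7.20 in MEKi 24 h, 8.55, 7.67 and 9.13 in DMSO 72 h and 8.43, 8.25 and 8.65 in MEKi 72 h. At 24 h its MEKi arrays lay above the DMSO arrays (0.65 ± 0.17, adjusted p = 0.0506), and this difference passed with the replicate block (adjusted p = 0.016) and without DMSO replicate 1 (0.0224), among other settings. The other Timp3 probe sets gave 0.48, 0.53 and 0.52 at 24 h, of which the last passed (adjusted p = 0.035). With the mean over its probe sets the 24 h difference was 0.55 and passed (adjusted p = 0.0241). At 72 h the groups overlapped (-0.01, adjusted p = 0.992). Timp1 differed by -0.15 and 0.21 and Timp2 by 0.00 and 0.17.

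More of the set differed between the harvest times than between MEKi and DMSO. The comparisons between the times carry the shifts in array median and Dap signal given above, and the part of the Dap shift was not tested. In DMSO cells 7 of the 46 genes were higher at 72 h than at 24 h (15.2%, beside 14.2% of all genes) and 10 were lower (21.7%, beside 16.9%). In MEKi cells 11 were higher (23.9%, beside 13.5%) and 9 were lower (19.6%, beside 16%). The shares in DMSO cells were near those of all genes. The median difference over the set was 0.07 in DMSO and 0.03 in MEKi, beside 0.04 over all genes in each.

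The DMSO change was led by Timp3, which rose by 1.89 ± 0.33, or 3.70-fold (adjusted p = 0.00323). All 4 of its probe sets rose, by 1.37 to 1.89. Besides Tinagl1, the falls were in Nid1 (-0.75 ± 0.07, adjusted p = 0.000203), Adam12 (-0.74 ± 0.09, adjusted p = 0.000552), Sparc (-0.66 ± 0.07, adjusted p = 0.000449) and Lamc1 (-0.53 ± 0.07, adjusted p = 0.000827). The Adam12 fall was lost with all 12 arrays in 1 fit (adjusted p = 0.0529). Smaller ones were in Fn1 (-0.41), Ecm1 (-0.44), Mmp2 (-0.34) and Adam9 (-0.25), and in Thbs1, which was at background. The last 4 of these were each lost without DMSO 24 h replicate 3 (adjusted p from 0.0594 to 0.0931) and without at least 1 other array, and the Adam9 call also with the replicate block (0.0573). Averaged over probe sets, the changes of Nid1 and Sparc were -0.46 and -0.33.

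Lama5 read 7.02, 6.81 and 6.68 in DMSO 24 h, 6.93, 6.89 and 7.04 in MEKi 24 h, 7.49, 7.56 and 7.58 in DMSO 72 h and 7.59, 7.52 and 7.73 in MEKi 72 h. It rose by 0.71 ± 0.10 in DMSO (adjusted p = 0.00097) and by 0.66 ± 0.08 in MEKi (adjusted p = 0.00045). Averaged over its probe sets these were 0.39 and 0.38. Adamtsl4 (0.52), Fbln1 (0.45), Mmp14 (0.36) and Hspg2 (0.29) also rose in DMSO. The Mmp14 call was lost without DMSO 24 h replicate 2 or 3 or DMSO 72 h replicate 1 or 2 (adjusted p from 0.0799 to 0.0995). It was also lost with the mean over its probe sets (0.21, adjusted p = 0.106). The Hspg2 call was lost without any 1 array other than DMSO 24 h replicate 2 (0.0545 to 0.144). With arrays centred on their median, Mmp14 (0.30, adjusted p = 0.0654) and Hspg2 (0.23, adjusted p = 0.098) did not pass. The Fbln1 rise did not pass in its other 2 probe sets (0.03 and -0.07), and a dimmer Hspg2 probe set fell by 0.56 (adjusted p = 0.00144), so the direction of Hspg2 depended on the probe set.

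In MEKi cells, from 24 h to 72 h, Col14a1 changed by -2.15 ± 0.16 as measured (adjusted p = 2.97e-05), with MEKi 24 h at least 3.31-fold above the background level of MEKi 72 h. The rises were led by Adamtsl4 (1.79 ± 0.19, adjusted p = 0.000179), Ecm1 (1.32 ± 0.10, adjusted p = 3.73e-05) and Timp3 (1.23 ± 0.12, adjusted p = 0.000102). Mmp2 fell by 0.76 ± 0.10 (adjusted p = 0.000535), and Mmp14, which read 10.32, 10.20 and 10.15 in DMSO 24 h, 10.43, 10.39 and 10.31 in MEKi 24 h, 10.62, 10.75 and 10.39 in DMSO 72 h and 11.03, 10.87 and 10.89 in MEKi 72 h, rose by 0.55 ± 0.08 (adjusted p = 0.000826). The other falls were in Col4a1 (-0.52), Fbln1 (-0.52), Fn1 (-0.44), Nid1 (-0.39), Sparc (-0.29) and Lamc1 (-0.23), and Hspg2 (0.36) and Timp1 (0.33) were among the other rises. The Lamc1 call was lost without any 1 of the 6 arrays (adjusted p from 0.0636 to 0.128). The Sparc call was lost without MEKi 24 h replicate 1 or 2 or MEKi 72 h replicate 1 or 3 (0.0765 to 0.0917). The Timp1 call was lost without MEKi 24 h replicate 3 (0.0583) or MEKi 72 h replicate 2 (0.0639). With arrays centred on their median the Timp1 change was 0.25 and did not pass (adjusted p = 0.0524). Averaged over probe sets, the changes of Sparc (-0.03, adjusted p = 0.814), Col4a1 (-0.20, 0.114) and Lamc1 (-0.08, 0.335) did not pass, and those of Col14a1 and Col1a2 were -1.02 and -1.07. The Lamc1 call was lost with the replicate block too (adjusted p = 0.0606). With quantile normalization again, Lamc1 (-0.11, adjusted p = 0.308) and Nid1 (-0.27, adjusted p = 0.0546) did not pass.

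**Figure D4:**
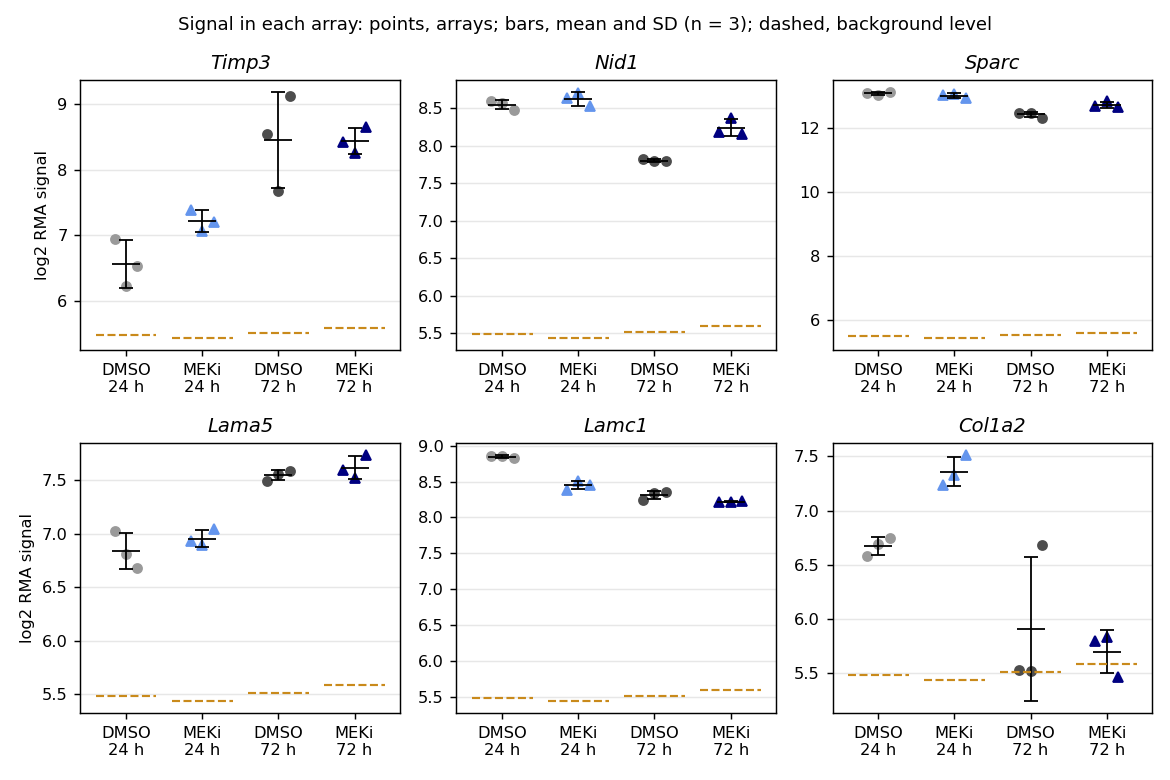
Log2 RMA signal in each array for 6 genes whose level differed between the harvest times. Points are arrays (grey circles DMSO, blue triangles MEKi), bars the mean and SD (n = 3), and dashed lines the background level of each group, and each panel has its own y axis. Timp3 and Lama5 are higher and Nid1, Sparc and Lamc1 lower at 72 h in DMSO, and 1 DMSO array of Col1a2 stands apart from the other 2 at 72 h.

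Over all 5 comparisons, 24 of the 46 genes passed at least once (52.2%, beside 45.3% of all genes). The 7 genes above background that passed in none were Col4a2, Lama4, Adam10, Adam17, Adamts1, Mmp9 and Timp2, and apart from Adamts1 their MEKi differences ran from -0.08 to 0.24. In some alternative settings Adam10 passed over time in MEKi cells (adjusted p from 0.0211 to 0.0479), and at 24 h without MEKi replicate 3 (0.0224). With the mean over probe sets, Timp2 passed over time in MEKi cells (-0.195, adjusted p = 0.0345) and Mmp9 in DMSO cells (0.215, adjusted p = 0.0258). The MEKi differences of the 16 genes at background ran from -0.23 to 0.23 in the probe sets used. A second probe set of Thbs1, also at background, gave -0.70 at 24 h (adjusted p = 0.0103) and -0.02 at 72 h (adjusted p = 0.934). With the mean over its probe sets the Thbs1 difference at 24 h was -0.46 and passed (adjusted p = 0.0118).

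Genes that work beside the set were counted by function, to be read beside the 5.01% of all genes higher and 5.86% lower with MEKi at 24 h and the 4.03% and 5.14% at 72 h. Of 36 other measured matrix genes, 4 rose and 4 fell with MEKi at 24 h, and 3 rose and 2 fell at 72 h, with medians of 0.06 and 0.03. The matricellular gene Ccn4 rose by 1.57 ± 0.13 at 24 h (adjusted p = 0.00146) and by 0.73 ± 0.15 at 72 h (adjusted p = 0.0208). Ccn2, another gene of that family, fell by 0.53 and 0.90 (adjusted p = 0.00424 and 0.00449). The type IV collagen chain Col4a4 was lower by -0.92 at 24 h (adjusted p = 0.00672) and, as measured, by -0.86 at 72 h (adjusted p = 0.0432), where MEKi cells were at background and DMSO cells, at 5.64, were near it. As a bound, Col4a4 was at least 1.04-fold higher in DMSO at 72 h.

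No gene of 12 for collagen processing passed at 24 h, and 2 of them, the lysyl hydroxylase Plod3 (0.39) and the lysyl oxidase Loxl3 (0.37), rose at 72 h. Among 21 other proteases, the cathepsin gene Ctsl rose (0.60) and Adamts4 fell (-0.34) at 24 h, while Adamts4 (0.48) and Ctsb (0.68) rose and Adam19 fell (-1.16 ± 0.15, adjusted p = 0.00241) at 72 h. The effects on Adamts4 and Adam19 differed between the times by 0.82 ± 0.12 and -1.48 ± 0.21 (adjusted p = 0.00406 and 0.00289). Of 6 other inhibitors, Reck, a membrane inhibitor of MMPs, rose at 24 h (0.49, adjusted p = 0.0059) and none passed at 72 h.

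Among 22 matrix receptors, 2 rose and 4 fell at 24 h and 2 rose and 2 fell at 72 h. One of those that rose at 24 h, the integrin chain Itgb8, was at background in all groups. The integrin chains Itgb3 (0.80) rose and Itga1 (-0.59) fell at 24 h, together with the syndecan Sdc1 (-0.58). Plaur, the receptor of the plasminogen activator urokinase, was lower with MEKi at 24 h (-0.48, adjusted p = 0.00575) and higher at 72 h (0.73, adjusted p = 0.0201), a difference of 1.21 ± 0.18 (adjusted p = 0.00446).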

How the data were processed

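B16-OVA RNA was measured on 12 Affymetrix mouse arrays. The authors normalized the arrays by RMA, per the labels, and deposited log2 signals per probe set. RMA adjusts background, equalizes the arrays' distributions and summarizes probes, so levels are relative and a shift shared by all genes is removed. Its version is not given in the sources used here. Values were used as deposited. Of 45101 probe sets, 64 controls were left out, and of the others 34945 were paired with 1 gene, 932 with several and 9160 with none.

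Each comparison was a limma (3.58.1, R 4.3.3) fit on its 6 arrays, two-sided, and the difference of MEKi effects used all 12. Groups came from sample titles. The workflow was tested on simulated data. The genes and lists, and the rule naming up to 10 called genes per comparison, were chosen with earlier results of these data known. Within a time, DMSO and MEKi arrays of the same number deviated together over brighter probe sets (r = 0.207 to 0.283 at 24 h, 0.214 to 0.307 at 72 h), and over all probe sets r was 0.0729 to 0.151 at 24 h and 0.13 to 0.189 at 72 h. Between the times, arrays of the same number and arm had r of 0.00558 to 0.0339 in DMSO and -0.0174 to 0.107 in MEKi, over all probe sets. A pairing by number across the times was thus weak or absent, which limits the replicate block in those comparisons. The number of arrays limits the precision.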

Additional observations from a re-analysis of the deposited data

Results flagged for a closer look

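The MEKi effect differed between 72 h and 24 h in 5 genes of the set, by limma's contrast on all 12 arrays. The effect at 72 h minus that at 24 h was -2.22 ± 0.21 as measured for Col14a1 (adjusted p = 0.000262), 2.17 ± 0.26 for Tinagl1 (adjusted p = 0.00136) and 1.76 ± 0.16 for Ecm1 (adjusted p = 0.000205). For Adamtsl4 it was 1.27 ± 0.25 (adjusted p = 0.0146) and for Fbln1 -0.97 ± 0.11 (adjusted p = 0.000774). Each of these passed in all alternative settings and without each array in turn. Col14a1 was at background in MEKi 72 h, and with that group held at the background level its value was -1.80. With the mean over its probe sets, of which the dimmer 2 were at background, the value for Col14a1 was -1.03.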

How the results depend on the processing

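Of 44 pairs of a named gene and a comparison, recomputed as 641 values under the alternatives, all kept their direction, and 43 values lost the call, 31 of them with an array left out. The number of genes called in the difference of MEKi effects was 8 with brighter probe sets only and 8 with array weights, beside 5 in the reported fit. These 8 held all 5 in both settings. With 1 array left out, it ran from 5 to 7. Called genes ran from 7 to 9 for MEKi at 24 h, from 6 (without DMSO replicate 1) to 10 at 72 h, from 11 (without DMSO 24 h replicate 3) to 18 for DMSO over time, and from 16 to 19 for MEKi over time, each with 1 array left out. With the replicate block (arrays paired by number) they were 9, 11, 17 and 21, and 6 for the difference, and beyond the changes given above it added calls for Adamts1 (0.37, adjusted p = 0.0486) and Plat (-0.34, adjusted p = 0.0383) in MEKi over time. In the comparisons over time the block pairs arrays of different harvest times, for which the pairing by number was weak or absent. The 2 other background levels each gave 15 genes at background. The direction of Hspg2 over time, which is not among the 44, turned with the mean over its probe sets, to -0.13 in DMSO and -0.17 in MEKi. Means over probe sets take in dimmer probe sets, some of them at background. Differences in genes near the background level are limited by signal over background.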
